A study of Mus musculus with 6 samples.

Results

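Ribosome biogenesis and nucleolar genes encode the proteins that transcribe ribosomal RNA, process it and assemble it with ribosomal proteins. The list was taken by symbol from a fixed set of 48 genes, and all 48 were found among the 43432 genes of the expression table. Of these, 45 had a mean of at least 10 normalized counts over the 6 libraries and were tested. None of the 45 passed the test between the groups (adjusted p below 0.05 with limma), where 6.12% of all genes tested did (607 of 9923).

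The study compared CD11b+ cells sorted from the spleens of 2 groups of 3 mice by bulk RNA sequencing. CD11b is an integrin chain of myeloid cells such as neutrophils, monocytes and macrophages. The hosts of both groups were C57BL/6J mice with the Rag1 KO genotype, which make no mature B or T cells of their own, and in both groups they received unmanipulated 2D2 CD4+ T cells, taken from a line specific for the myelin protein MOG, along with cultured B cells (iGB cells) loaded with MOG protein. In the WT iGB6 group the B cells were wild type and had been transduced with a pMSCV-IRES2-eGFP retroviral construct that carries Il6. In the IgHMOG iGBGFP group they were IgHMOG B cells transduced with an empty pMSCV vector. B cell genotype and vector insert changed together, so their contributions cannot be told apart. Spleens were taken on day 8 after transfer. Each library came from its own mouse, the first of each group female and the other 2 male. The sources used here do not give their age.

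Libraries held 5196339 to 7564254 reads assigned to genes, with 14816 to 17013 genes detected. Values are normalized counts, that is, reads divided by 1 size factor for each library, so that 3 reads corresponded to 2.37 to 3.56 normalized counts. A few genes took much of each library: the 10 most abundant held 17.3% to 34.9% of the normalized counts. Itgam, which encodes CD11b, was at 6451 to 12352 normalized counts in the 6 libraries and its group difference was not called (log2 fold change 0.49, SE 0.22, adjusted p = 0.203, limma). Ptprc, a marker of blood cells in general, was at 11231 to 18327.

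Ribosome production starts in the nucleolus, where RNA polymerase I transcribes a long precursor of ribosomal RNA. Small nucleolar ribonucleoproteins modify the precursor at chosen bases, the small subunit processome folds and cuts it, and separate sets of factors complete the small (40S) and large (60S) subunits. The output of this pathway tends to follow cell growth and division. In neutrophil development, precursors in the bone marrow and spleen divide and build many ribosomes, while mature neutrophils do not divide and hold little RNA. In bulk samples of this kind, fewer cells of a type and less RNA per cell cannot be told apart.

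Expression of the 45 tested genes differed little between the groups. Fold changes are given here as the log2 of WT iGB6 over IgHMOG iGBGFP with sex as a covariate, computed on log2(normalized count + 1), which understates the change of low genes. The median of the 45 was -0.04, beside 0.02 for all genes tested, with 21 genes above 0 and 24 below. The values ran from -0.91 to 1.52, and 40 of 45 lay within 0.5 of 0 on the log2 scale. A log2 fold change beyond 1 in either direction was measured for 1 gene of the list (2.22%), against 9.85% of all genes tested.

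The precision of these values was that of the table as a whole, with a median SE of 0.25 for the list and for all genes. For 31 of the 45 genes (68.9%) the 95% confidence interval of the log2 fold change lay entirely between -1 and 1, beside 56.1% of all genes tested. For the other 14 it reached -1 or 1. At an unadjusted p below 0.05, 4 of the 45 passed (8.89%), Rrs1, Nolc1, Mphosph10 and Nob1, where 24.5% of all genes tested did. Rrs1 reached the minimum mean of 10 only through WT iGB6, and Noc3l only through IgHMOG iGBGFP, so both had to differ to be tested and neither supports a difference. The 3 values of one group all lay above those of the other for 7 genes (15.6%), beside 23.6% of all genes tested. WT iGB6 was the higher group for 6 of these (Nolc1, Utp4, Mphosph10, Ltv1, Ebna1bp2 and Rrs1) and the lower for 1 (Ddx18).

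Count models gave the same answer for the list. On the recovered whole reads, edgeR called 0 of the 45 (6.11% of all genes tested were called) and DESeq2 called 0 (8.14% of all genes given an adjusted p). In the authors' deposited table, 0 of the 46 list genes with an adjusted p were below 0.05, where 8.18% of all genes with one were. Fits that weighted each library by its estimated quality called Rrs1 (log2 fold change 1.57, adjusted p = 0.0184) among 14.5% of all genes tested, and this call carries the same limit, since the gene was tested only because of its WT iGB6 level.

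**Figure D1:**
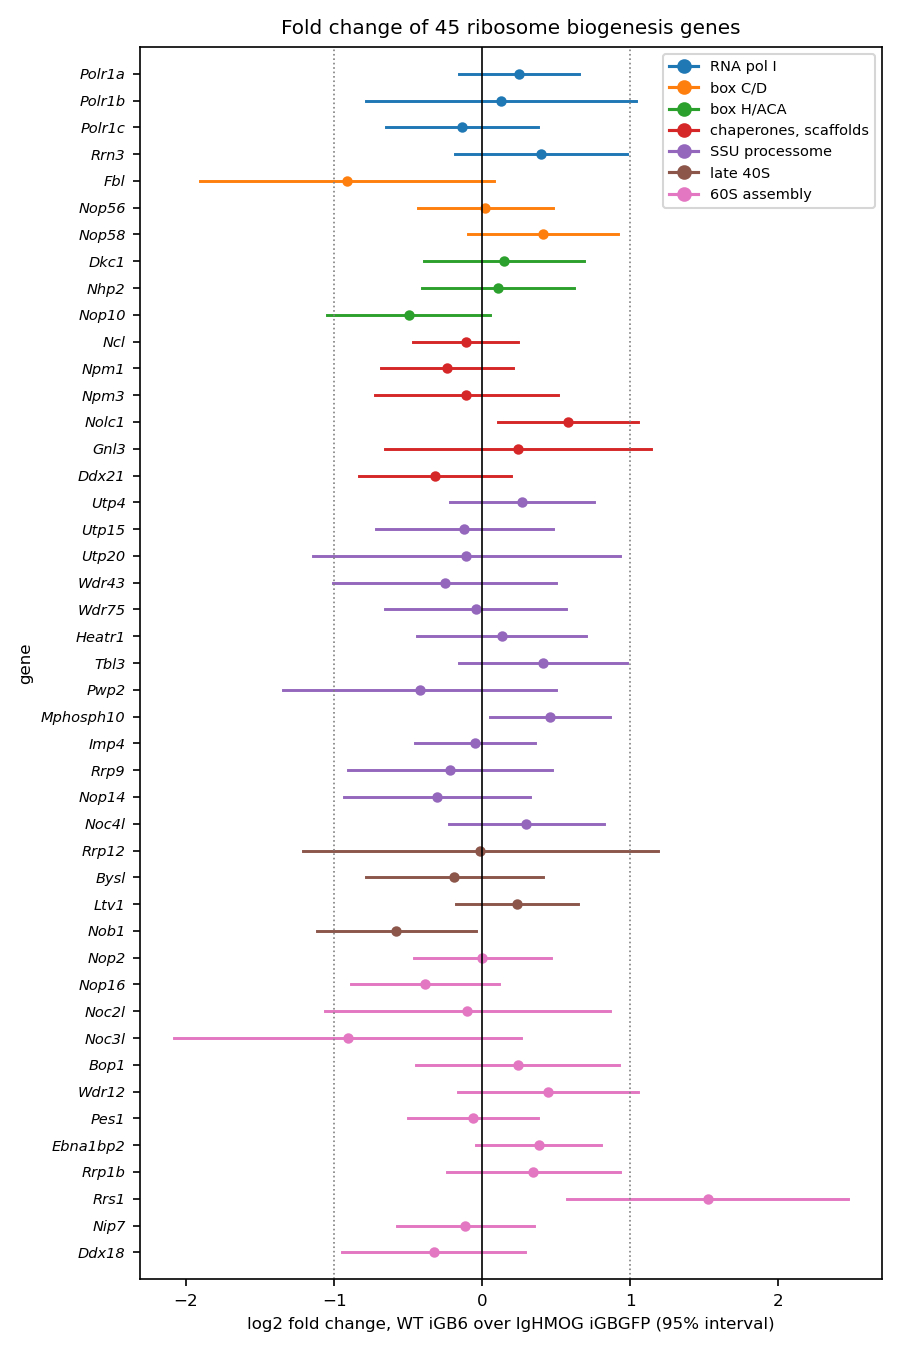
Group difference on the log2 scale, WT iGB6 minus IgHMOG iGBGFP (horizontal axis), for each tested gene of the list, grouped by role, with points for the limma estimate and bars for its 95% confidence interval. Most intervals cross 0, and the 4 that do not belong to Rrs1, Nolc1, Mphosph10 and Nob1.

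RNA polymerase I and the factor that recruits it were represented by 4 genes, all tested, with a median log2 fold change of 0.19. Polr1a encodes the largest subunit and catalytic core of the enzyme. It was the most abundant of the 4, at 324, 225 and 223 normalized counts in IgHMOG iGBGFP replicates 1, 2 and 3 and at 317, 279 and 307 in the WT iGB6 replicates. The groups overlapped through the high first IgHMOG iGBGFP library, and the difference was 0.25 (SE 0.18, adjusted p = 0.444, limma). Rrn3 links the polymerase to its promoter and is the step at which growth signals are known to control the enzyme. Its values were 64.4, 76.8 and 101 in IgHMOG iGBGFP and 122, 113 and 83.2 in WT iGB6. The third WT iGB6 library lay within the other group, and the difference was 0.40 (95% interval -0.18 to 0.98, adjusted p = 0.385, limma). The catalytic partner subunit Polr1b was at 0.13 and Polr1c, a subunit shared with RNA polymerase III, at -0.14 on the log2 scale.

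Box C/D small nucleolar ribonucleoproteins guide methylation of ribose in ribosomal RNA, and their 3 core proteins on the list had a median of 0.02. Fibrillarin (Fbl), the methyltransferase, was the least abundant of the 3. It was listed at 16.4, 42.3 and 22.0 normalized counts in IgHMOG iGBGFP and at 9.49, 23.7 and 9.00 in WT iGB6. Replicate 2 was the high library in each group and the groups overlapped there, with a log2 fold change of -0.91 (SE 0.45, 95% interval -1.90 to 0.08, adjusted p = 0.240, limma). Its scaffold partners were measured at higher levels. Nop58 was at 89.0, 84.5 and 126 in IgHMOG iGBGFP and at 123, 145 and 125 in WT iGB6, a difference of 0.41 (SE 0.23, adjusted p = 0.303, limma), with the third IgHMOG iGBGFP library as high as the other group. Nop56, which pairs with Nop58, was at 199.5, 232 and 304 against 259.7, 256 and 222, and its difference of 0.02 (SE 0.21) became -0.01 with TMM scaling.

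Box H/ACA ribonucleoproteins guide the conversion of uridine to pseudouridine. Dkc1 encodes their pseudouridine synthase. Its 3 IgHMOG iGBGFP values were 101, 118 and 144 and its WT iGB6 values were 166, 106 and 134, fully intermixed (0.15, SE 0.24). Nhp2, a small core protein, was at 125, 197 and 139.9 against 165, 189 and 137, also intermixed (0.11, SE 0.23). Nop10, another small core protein, was at 99.2, 143 and 143 against 91.3, 110.5 and 70.9, and only the first IgHMOG iGBGFP library reached the range of the other group (-0.50, SE 0.25, adjusted p = 0.248, limma). The remaining core protein, Gar1, was not tested because its libraries held 0 to 4 reads.

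Among the 6 chaperones and scaffolds of the nucleolus, nucleolin (Ncl) was the most abundant gene of the whole list. Nucleolin binds ribosomal RNA precursors and chromatin of the ribosomal genes. It was at 707, 788 and 729 normalized counts in IgHMOG iGBGFP and at 685, 711 and 661 in WT iGB6. The means, 741 ± 42.1 and 686 ± 24.9 (SD, n = 3 each), differed by -0.11 on the log2 scale, with a 95% interval of -0.46 to 0.24 (adjusted p = 0.714, limma). Its SE was 0.16.

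Nolc1 encodes a phosphoprotein that escorts small nucleolar ribonucleoproteins into the nucleolus. It lies on chromosome 19 at 46075863 to 46085530 (GRCm38) and was measured at 105, 82.8 and 107 in IgHMOG iGBGFP and at 142, 139.7 and 157.5 in WT iGB6. The groups did not overlap. The means were 98.4 ± 13.5 and 146.5 ± 9.60 (SD, n = 3 each), and the log2 fold change was 0.58 (SE 0.21, 95% interval 0.11 to 1.05). Its unadjusted p of 0.0212 became 0.128 after adjustment over all genes tested (limma). Leaving out any 1 library kept the value between 0.45 and 0.66.

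The other members of this class lay closer to 0. Ddx21, an RNA helicase of polymerase I transcription and rRNA processing, was at 91.0, 119 and 122 against 73.5, 117 and 78.7 (-0.32, SE 0.23). The second WT iGB6 library lay inside the IgHMOG iGBGFP range and the other two lay below it. The histone and assembly chaperone nucleophosmin (Npm1) was at -0.24 (SE 0.20), its relative Npm3 at -0.11, and nucleostemin (Gnl3), a GTP-binding protein of dividing cells, at 0.24 with only 10.4 to 24.7 normalized counts. Npm1 has processed copies elsewhere in the genome, and the sources used here do not say how reads with several matches were treated.

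The small subunit processome was the largest role class, with 15 genes, of which 13 were tested and 5 lay above 0 (median -0.05). Mphosph10 forms a complex with Imp3 and Imp4 that helps U3 RNA pair with the ribosomal precursor. It lies on chromosome 7 at 64376527 to 64392268 (GRCm38). Its values were 233, 185 and 182 in IgHMOG iGBGFP and 282, 249 and 289 in WT iGB6, without overlap. The means, 199.9 ± 28.9 and 273 ± 21.6 (SD, n = 3 each), gave a log2 fold change of 0.46 (SE 0.18, 95% interval 0.05 to 0.86), with an unadjusted p of 0.0313 and an adjusted p of 0.160 (limma).

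Imp4, the most abundant processome gene, was at 311, 306 and 388 in IgHMOG iGBGFP and at 295, 365 and 310.4 in WT iGB6. These values were intermixed, and the log2 fold change was -0.05 (SE 0.18). Imp3 held 0 to 9 reads in the 6 libraries and was not tested. Tbl3, a repeat protein of the processome core, was at 67.5, 62.1 and 81.0 against 92.5, 117 and 74.2. The third WT iGB6 library lay among the other group, and the difference was 0.41 (SE 0.25, adjusted p = 0.360, limma).

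Subunits of the processome that are also linked to transcription of the ribosomal genes were spread on both sides of 0. Utp4 was at 0.27 and did not overlap between groups, Heatr1 was at 0.13, Wdr75 at -0.04, Utp15 at -0.12 and Wdr43 at -0.25. Pwp2, the core partner of Tbl3, was at -0.42 (SE 0.42) and at 0.07 without WT iGB6 replicate 3. The U3 protein Rrp9 was at -0.22 and at 0.02 without WT iGB6 replicate 2. Wdr43 was at 0.18 without IgHMOG iGBGFP replicate 3. The pair Nop14 and Noc4l, which act together in the nucleolus, were at -0.31 and 0.30. The large scaffold Utp20 was at -0.11 (SE 0.47) and the lowest of the 45 tested genes of the list per length of exon. Utp18 had 3 to 17 reads per library and fell under the minimum for testing.

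Late steps of the small subunit take place partly in the cytoplasm and were represented by 4 genes (median -0.10). Nob1 encodes the endonuclease that makes the final cut of 18S ribosomal RNA and lies on chromosome 8 at 107412486 to 107425051 (GRCm38). It was at 56.3, 101 and 87.0 normalized counts in IgHMOG iGBGFP and at 40.3, 67.9 and 52.9 in WT iGB6. Each WT iGB6 library was below the IgHMOG iGBGFP library of the same sex, but the groups overlapped because the female library was lowest in each. The log2 fold change was -0.58 (SE 0.24, 95% interval -1.12 to -0.04), with an unadjusted p of 0.0364 and an adjusted p of 0.173 (limma). Ltv1, which leaves the particle late in maturation, was at 172, 178.5 and 215 against 217, 229 and 217. The groups did not overlap, although the third IgHMOG iGBGFP library came within a few counts of WT iGB6 (0.24, SE 0.19, adjusted p = 0.473, limma). The assembly factor Bysl was at -0.19, and the export factor Rrp12 at -0.01 with an interval of -1.21 to 1.19.

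Large subunit assembly was represented by 12 genes, with 6 above 0 and a median of -0.03. Rrs1, which helps place the 5S ribonucleoprotein into the large subunit, had the largest difference of the list and the smallest p, but its mean in IgHMOG iGBGFP was under the minimum of 10, so its values are a description. It lies on chromosome 1 at 9545408 to 9547455 (GRCm38). The gene was low in every library, with 8, 6 and 4 reads in IgHMOG iGBGFP and 18, 25 and 12 in WT iGB6. As normalized counts these were 8.18, 5.175 and 3.998 against 21.3, 19.7 and 13.5, without overlap. The means were 5.79 ± 2.16 and 18.2 ± 4.14 (SD, n = 3 each), and the log2 fold change was 1.52 (SE 0.43, 95% interval 0.57 to 2.47), a fold of 2.87. Its unadjusted p was 0.005 and its adjusted p was 0.0622 (limma). Leaving out any 1 library kept the value between 1.34 and 1.64.

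Ebna1bp2, a scaffold of early large subunit particles, was the most abundant gene of this class. It was at 322, 342 and 287 in IgHMOG iGBGFP and at 426, 345 and 477 in WT iGB6. The groups met without overlapping at the second replicate of each, and the difference was 0.38 (SE 0.19, adjusted p = 0.251, limma). The 3 proteins of the complex of Pes1, Bop1 and Wdr12, which is needed for processing of the large subunit RNAs, were at -0.06, 0.24 and 0.44, and Bop1 was at -0.18 without either female. The pair Noc2l and Noc3l, which bind early large subunit particles, were at -0.10 and -0.91, and both were low, with 4.74 to 33.0 normalized counts for Noc3l. The RNA methyltransferase Nop2 was at 0.00, the nucleolar protein Rrp1b at 0.35 (0.04 without either female), Nip7 at -0.11, the helicase Ddx18 at -0.33 and Nop16 at -0.39.

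**Figure D2:**
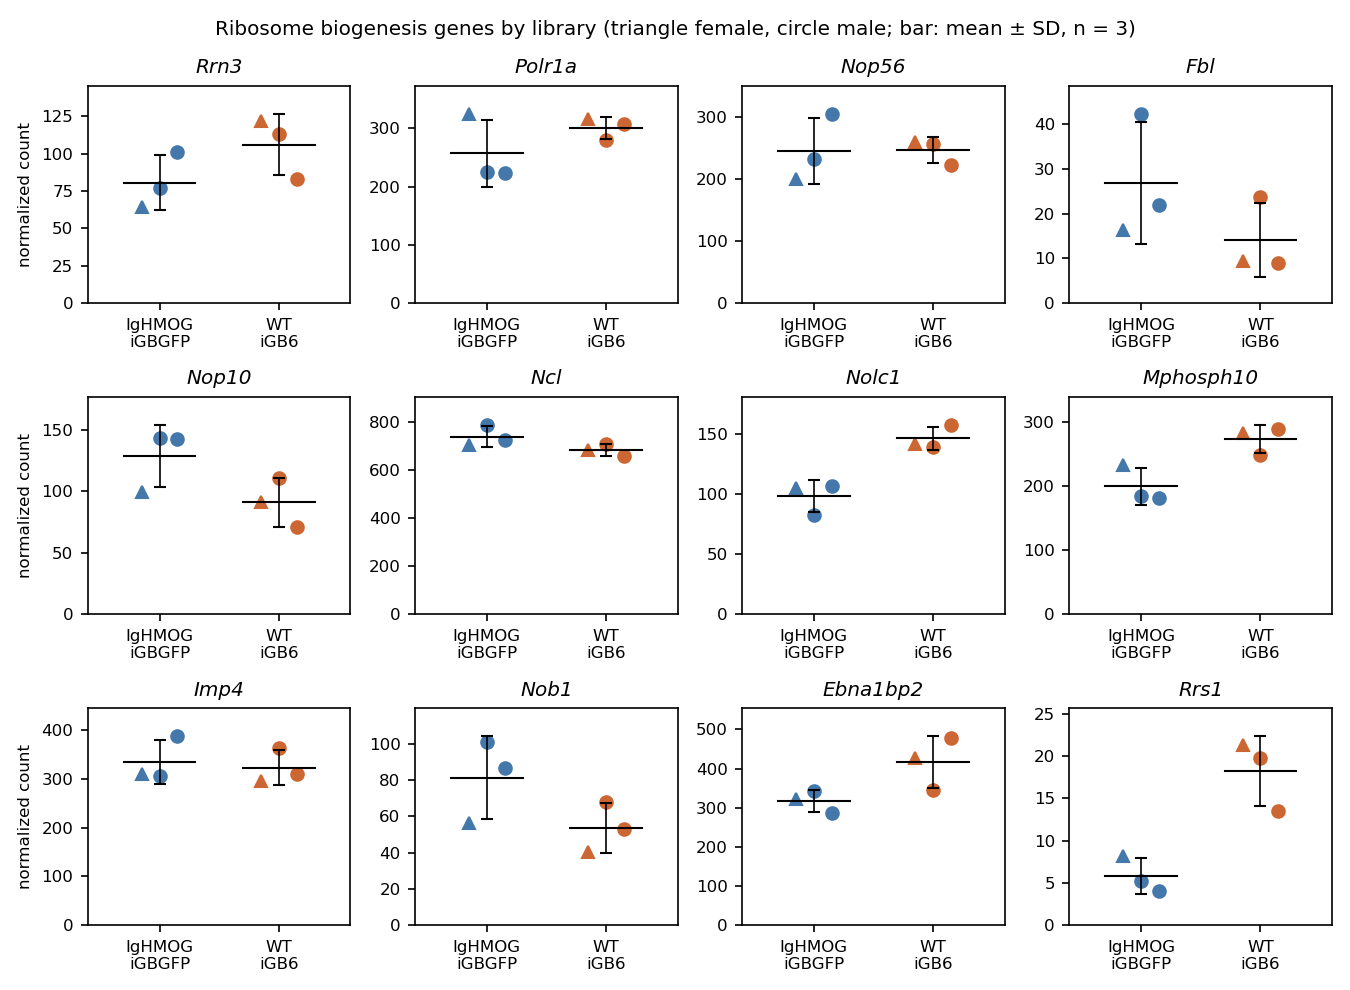
Normalized counts (vertical axis, linear, scaled to each gene) of genes of the list, with 1 point for each of the 6 libraries coloured by group. Triangles are females, circles are males, and bars give the mean and SD of each group. The genes are Rrn3, Polr1a, Nop56, Fbl, Nop10, Ncl, Nolc1, Mphosph10, Imp4, Nob1, Ebna1bp2 and Rrs1. Points of the groups overlap for most of them. Rrs1, Nolc1, Mphosph10 and Ebna1bp2 are the ones with all 3 WT iGB6 points above all 3 IgHMOG iGBGFP points.

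Levels between genes were compared per kilobase of exon, from the mean over the 6 libraries. Exon length covered every annotated exon of a gene, whichever transcripts were expressed, so these levels are approximate. Npm1 was the highest at 167 normalized counts per kilobase, followed by Nhp2 at 139, Ebna1bp2 at 103, Nop10 at 98.9 and Ltv1 at 88.4. The median of the 45 tested genes was 23.5 and Utp20 was the lowest at 1.68. Utp20 encodes a very large scaffold protein. The cDNA was amplified before library construction, and coverage along long transcripts was not tested.

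The sources used here do not say whether strand was used in counting. For 9 genes of the list an expressed protein-coding gene lies on the opposite strand at the same place, so that reads of the 2 cannot be told apart. These pairs were Nop56 with Idh3b, Dkc1 with Mpp1, Nhp2 with Rmnd5b, Gnl3 with Pbrm1, Heatr1 with Lgals8, Rrp9 with Parp3, Bysl with Ccnd3, Bop1 with Mroh1, and Wdr12 with Carf. None of Rrs1, Nolc1, Mphosph10 and Nob1 was among them.

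The level of the list differed between mice of the same group, in both groups. Taking each gene's deviation from its own mean log2 level, the median over the 45 genes was -0.25, -0.07 and 0.29 in IgHMOG iGBGFP replicates 1, 2 and 3 and -0.02, 0.17 and -0.12 in the WT iGB6 replicates. The lowest and the highest library therefore belonged to the same group. IgHMOG iGBGFP replicate 3 was the highest of the 6 libraries for 20 of the 45 genes (44.4%), beside 18.5% of all genes tested. IgHMOG iGBGFP replicate 1 was the lowest for 18 of the 45 (40%), beside 13.6% of all genes tested. The 124 other ribosome biogenesis genes described below showed the same pattern, so it was not particular to the list. Replicate 3 of IgHMOG iGBGFP was the highest for 45 of them (36.3%) and replicate 1 the lowest for 38 (30.6%). The summed normalized counts of the list were 5078, 5739 and 6702 in IgHMOG iGBGFP and 5906, 6259 and 5580 in WT iGB6. As a share of each library this was 0.102% ± 0.0263 and 0.0887% ± 0.0143 (SD, n = 3 each), with overlap.

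Leaving out 1 library turned the sign of 21 of the 45 genes in at least 1 of the 6 fits. The sign of the list's median rested on single libraries too. It was 0.16 without IgHMOG iGBGFP replicate 3 and 0.11 without WT iGB6 replicate 3. With either female left out, the sex term takes up the other female, so the group difference is that of the males only. The median was then -0.14, the same whichever female was left out. Each of these fits called 0 genes of the list. Of all genes, they called 28 of 9849 without IgHMOG iGBGFP replicate 3 and 657 of 9941 without WT iGB6 replicate 3. Without the IgHMOG iGBGFP or the WT iGB6 female they called 128 of 9919 and 133 of 9937. The coefficient of variation was larger in IgHMOG iGBGFP than in WT iGB6 for 33 of the 45 genes (73.3%), beside 56.9% of all genes tested. Its medians were 22.8% and 18.4% for the list, close to the 22.2% and 19.3% of all genes tested.

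**Figure D3:**
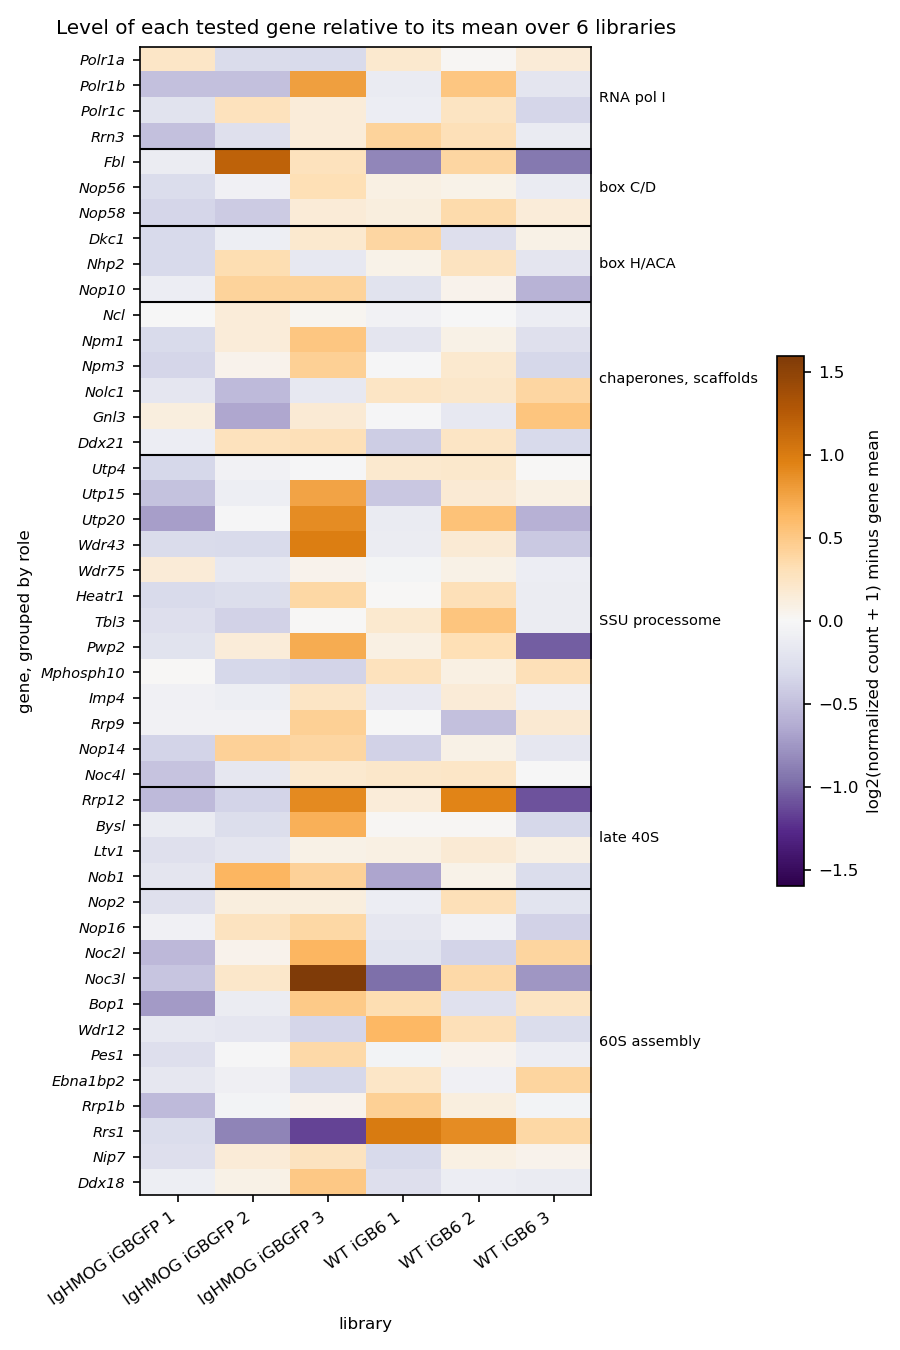
Deviation of each tested gene of the list from its own mean log2 level (colour scale, log2 units) in the 6 libraries (columns), with genes in rows grouped by role. The third IgHMOG iGBGFP column is mostly above the mean and the first mostly below it, at medians of 0.29 and -0.25.

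The signed group difference lay higher in the females than in the males for most of the list. With 1 female in each group, the female difference (WT iGB6 minus IgHMOG iGBGFP) was positive for 31 genes and negative for 14, with a median of 0.27. The male difference, from 2 mice in each group, was positive for 17 and negative for 28, with a median of -0.14. The female value exceeded the male value for 38 of the 45 genes (84.4%), beside 51.9% of all genes tested. This was not particular to the list. The median of the female minus the male value was 0.38 for the list and 0.02 for all genes tested. Among lists described below it was 0.37 for cytosolic ribosomal protein genes and 0.46 for nucleotide synthesis genes. It was 0.17 for the other ribosome biogenesis genes and -0.01 for the Myc network. In size, regardless of sign, the female difference was the larger for 23 of the 45. For Bop1 the values were 1.07 in females and -0.18 in males, and for Rrn3 they were 0.91 and 0.14. The interaction of sex and group, which tests this difference for each gene, called 0 of the 45 and 0.0% of all genes. At an unadjusted p below 0.05 it held for 0 of the 45, beside 1.49% of all genes. The first IgHMOG iGBGFP library, which was low for the list, is the only female of its group, so mouse and sex cannot be told apart.

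The wider pathway was read from 4 further lists of ribosome biogenesis genes, with 132 genes in all and 124 tested. Only 1 of them passed the test, and 65 of the 124 lay above 0 (median 0.03). Mdn1, a very large ATPase that strips assembly factors from the maturing large subunit, rose from 166 ± 65.1 to 372 ± 101 normalized counts (SD, n = 3 each; log2 fold change 1.19, SE 0.27, adjusted p = 0.0339, limma). This call was lost without the sex term and without IgHMOG iGBGFP replicate 2 or replicate 3. With either of these libraries left out, 0 of the list's genes were called, beside 4 of 9872 and 28 of 9849 of all genes.

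The other large subunit list had 48 tested genes with a median of 0.03, where Ccdc86 (0.71, adjusted p = 0.111) and Sdad1 (-0.48, adjusted p = 0.333) came next by p. None of 43 small subunit genes passed (median -0.01), and the smallest p-values belonged to the helicase Ddx49 (0.87, adjusted p = 0.0661), Utp6 (0.69, adjusted p = 0.0921) and the kinase Riok1 (0.43, adjusted p = 0.295). None of 11 other RNA polymerase I genes passed (median -0.13), with the subunit gene Polr1f at -1.17 (adjusted p = 0.0679) and the initiation factor subunits Taf1c at -0.63 and Taf1a at -0.45. None of 22 genes of the RNA exosome and of ribonucleoprotein assembly passed (median 0.18). Its leading genes were the exosome helicase Mtrex (0.73, adjusted p = 0.0517), the ATPase Ruvbl2 (0.65, adjusted p = 0.0659) and the assembly factor Shq1 (1.11, adjusted p = 0.114), all from limma.

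Genes upstream and downstream of the list were also compared. Of 78 tested cytosolic ribosomal protein genes, 68 lay below 0 with a median of -0.17. IgHMOG iGBGFP replicate 2 was the highest of the 6 libraries for 62 of the 78 (79.5%), beside 21.9% of all genes tested. The median difference was -0.30 in the males and 0.05 in the females. Only 1 of the 78 genes passed the test. This was Rps27, which fell from 629.9 ± 166 to 369.9 ± 59.7 normalized counts (SD, n = 3 each; log2 fold change -0.74, SE 0.17, adjusted p = 0.0361, limma), and Rpl37 came next (-0.46, adjusted p = 0.158). The call of Rps27 was lost without the sex term and without any 1 of the IgHMOG iGBGFP libraries or WT iGB6 replicate 1. Ribosomal protein genes have many processed copies and close relatives, so their single values are uncertain. The network of Myc, the transcription factor best known for driving ribosome production, had 0 of 10 tested genes called and a median of -0.19. Myc itself was at 44.0 ± 12.2 and 51.1 ± 17.8 (SD, n = 3 each), and Mlx (0.46, adjusted p = 0.168) and Mga (-0.46, adjusted p = 0.187) had the smallest p-values. Nucleotide synthesis genes, which supply the building blocks of RNA and DNA, had 0 of 14 called with a median of 0.22, led by Prps1 (0.61, adjusted p = 0.0901) and Ppat (0.64, adjusted p = 0.188).

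Of 31 tested genes of DNA replication and mitosis, 21 rose in WT iGB6 and 0 fell, with a median of 1.07 and all 31 above 0. Rrm2, needed to make DNA precursors, was at 656 ± 145 in IgHMOG iGBGFP and 1874 ± 569 normalized counts in WT iGB6 (SD, n = 3 each; log2 fold change 1.49, adjusted p = 0.00471, limma), and the spindle protein Tpx2 rose by a log2 fold change of 1.46 (adjusted p = 0.00918). The number called depended on single libraries, being 0 without IgHMOG iGBGFP replicate 2, 1 without IgHMOG iGBGFP replicate 3 and 5 without either female, and it was 0 without the sex term. Neutrophil precursor genes rose too, 8 of 8, with a median of 2.27. That count was 0 without IgHMOG iGBGFP replicate 2 and without the sex term, 2 without IgHMOG iGBGFP replicate 3 and 4 without either female. Among these, Ms4a3 rose by 2.21 and Fcnb by 1.88 on the log2 scale.

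**Figure D4:**
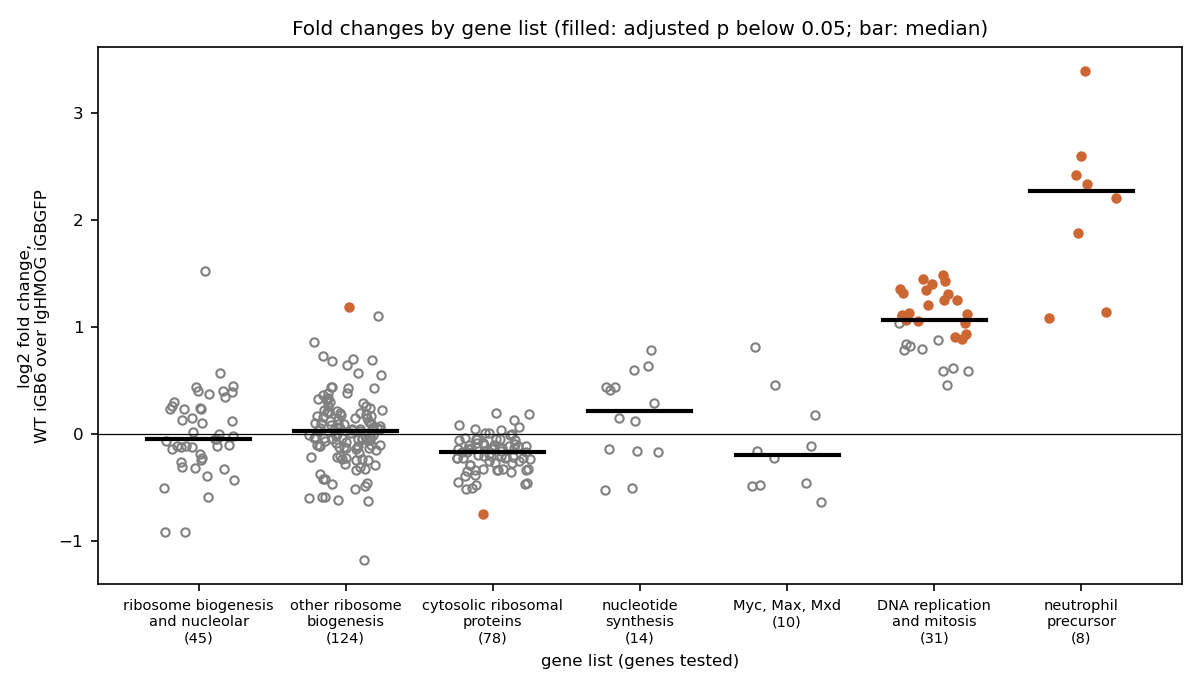
Group difference on the log2 scale, WT iGB6 minus IgHMOG iGBGFP, for every tested gene of each list (points), with the median of each list. The ribosome biogenesis lists lie around 0, while DNA replication and mitosis genes lie around 1.07 and neutrophil precursor genes around 2.27.

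The order of the libraries for these lists differed from that for the ribosome biogenesis list. The median deviation of DNA replication and mitosis genes was -0.16, -0.73 and -0.74 in IgHMOG iGBGFP and 0.97, 0.64 and 0.02 in WT iGB6. For neutrophil precursor genes it was -0.39, -0.87 and -1.96 against 1.63, 1.30 and 0.48. The third IgHMOG iGBGFP library was thus the highest of the 6 for ribosome biogenesis and the lowest of the 6 for neutrophil precursor genes. Its medians for the other cell type lists described below ran from -1.49 for erythroid genes to 1.49 for dendritic cell genes, with neutrophil genes at -0.79. The part of cell content in this order was not tested. For DNA replication and mitosis genes it was about level with the second IgHMOG iGBGFP library, whose summed normalized counts were lower (5582 against 5817). Cytosolic ribosomal protein genes had medians of -0.27, 0.37 and 0.15 against -0.19, 0.08 and -0.16. They shared their lowest library, IgHMOG iGBGFP replicate 1, with the ribosome biogenesis list but were highest in IgHMOG iGBGFP replicate 2.

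**Figure D5:**
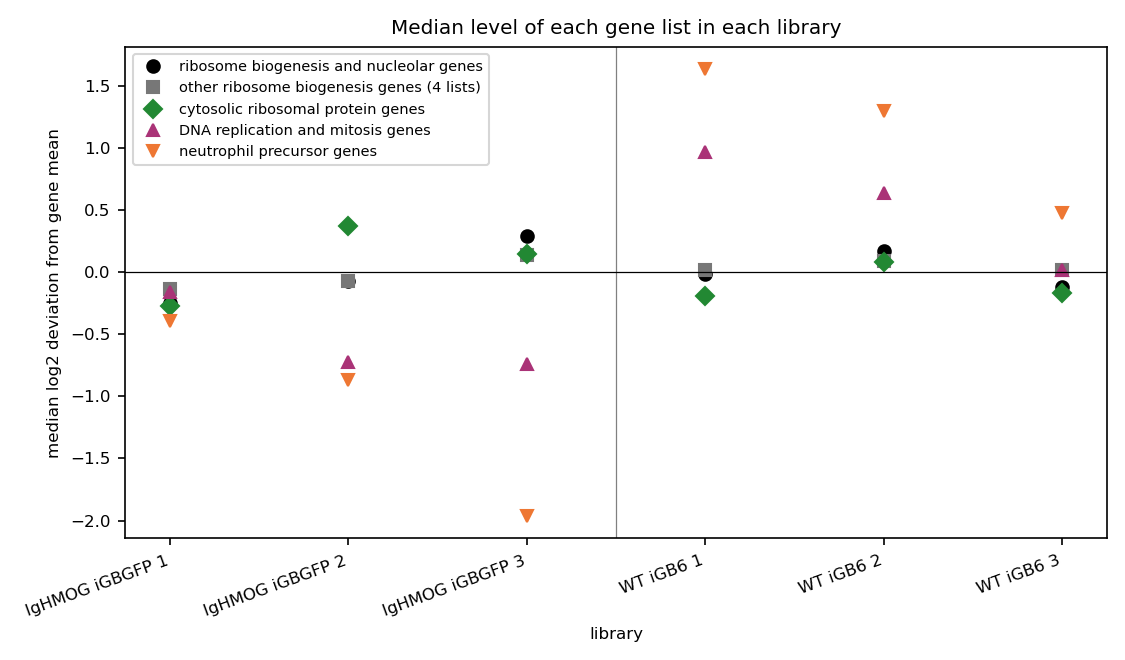
Median deviation from the mean log2 level (vertical axis, log2 units) of each gene list in the 6 libraries (horizontal axis). The ribosome biogenesis list peaks in IgHMOG iGBGFP replicate 3, at 0.29, where neutrophil precursor genes are at -1.96.

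Markers of the other cells that a CD11b+ sort can hold also differed between the libraries. Summed normalized counts of 8 neutrophil precursor genes were 5518 to 13135 in IgHMOG iGBGFP and 22341 to 36765 in WT iGB6. Those of 11 neutrophil genes were 613449 to 1594838 against 1150766 to 1926584, where Cxcr2 fell and 8 of 11 lay above 0 (median 0.51). Those of 12 monocyte and macrophage genes were 16860 to 25941 against 14431 to 22831, where Cd5l rose, Cx3cr1 fell and 9 of 12 lay below 0 (median -0.34). Dendritic cell genes summed to 363 to 1194 against 54.5 to 215, with 3 of 4 tested lower in WT iGB6, and basophil and mast cell genes to 1887 to 7501 against 557 to 1777, with 5 of 8 lower and 1, Kit, higher.

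None of the tested B cell and plasma cell genes (6 of 10 on the list), T cell and natural killer cell genes (4 of 8) or erythroid genes (7 of 8) passed the test, with 5 of 6, 3 of 4 and 0 of 7 below 0. Their sums were 2773 to 4526 against 2123 to 2569, 186 to 358 against 129 to 556, and 749.7 to 3154 against 1999.9 to 4475. Kit and Gata2, which are in both the basophil and mast cell list and the haematopoietic progenitor list, were the genes called among 7 tested of the latter, Kit higher and Gata2 lower, and the list summed to 469 to 596 against 474 to 638. The markers Ms4a1, Pax5 and Jchain, and Cd3e, Cd8a and Eomes, were at 0 in at least 1 library. Of 15 tested genes known to respond to cell isolation stress, 9 were lower in WT iGB6, and their sums were 34036 to 55772 against 18220 to 31825. These calls rested on single libraries. The stress genes called lower numbered 0 without IgHMOG iGBGFP replicate 2, 1 without IgHMOG iGBGFP replicate 3 and 3 without either female. Leaving out any 1 IgHMOG iGBGFP library or WT iGB6 replicate 1 ended the calls of Cxcr2, Cd5l and Cx3cr1 and left 1 dendritic cell gene called. The call of Gata2 was lost without IgHMOG iGBGFP replicate 2 or 3, that of Kit on leaving out any 1 of the 6 libraries, and the lower basophil and mast cell genes numbered 0 without IgHMOG iGBGFP replicate 2. The part of these differences in the values of the ribosome biogenesis genes was not tested.

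Promoter sequences were read to describe what the genes share beyond their role. RefSeq windows of 250 bases before to 50 after the transcription start (GRCm38.p6) were matched by symbol for 42 of the 48 genes. The E-box CACGTG, the preferred sequence of Myc with Max, was found in 9 of the 42 windows (21.4%), beside 7.24% of all 27025 promoters and 10.7% of those of tested genes. The sequence CCGGAAGT, the core bound by ETS-family factors, was found on either strand in 11 (26.2%), beside 4% and 9.70%. The element TCTCGCGA was found on either strand in 3 (7.14%), beside 1.08% and 2.66%, and TATAAA on either strand in 2 (4.76%), beside 14.2% and 6.86%. Median GC content was 58.8% in the list, 60.7% in the promoters of tested genes and 52.7% in all promoters. A match describes the letters of these windows and is not a measured binding site.

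The windows below are examples of the E-box (first 3) and the ETS core (last 3) in list promoters, with the motif in capitals. Only sites wholly before the transcription start were printed. In Ltv1, Pes1, Utp20, Utp4 and Wdr43 the only E-box lay after the start. Rrn3 is at chr16:13780623-13780682 (+), Imp4 at chr1:34439680-34439739 (+), Nop2 at chr6:125131795-125131854 (+), Nip7 at chr8:107056748-107056807 (+), Pwp2 at chr10:78185150-78185209 (-) and Ltv1 at chr10:13193160-13193219 (-), all GRCm38.p6. The Ltv1 window carries the motif on the other strand and is printed as ACTTCCGG.
Rrn3: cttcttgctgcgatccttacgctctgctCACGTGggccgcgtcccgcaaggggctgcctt
Imp4: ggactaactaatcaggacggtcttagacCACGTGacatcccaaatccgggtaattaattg
Nop2: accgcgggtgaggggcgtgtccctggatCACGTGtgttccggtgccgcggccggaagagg
Nip7: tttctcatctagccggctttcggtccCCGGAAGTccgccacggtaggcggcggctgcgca
Pwp2: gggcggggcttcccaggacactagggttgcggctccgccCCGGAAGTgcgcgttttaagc
Ltv1: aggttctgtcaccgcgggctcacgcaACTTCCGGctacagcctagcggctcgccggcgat

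Group differences of genes with and without a motif were set side by side, with no test. The median log2 fold change was -0.02 over the 8 tested genes with the E-box and -0.10 over the 31 without it. It was 0.12 over the 10 tested genes with the ETS core and -0.06 over the 29 without. The 3 genes with an E-box printed above were at 0.40 (Rrn3), -0.05 (Imp4) and 0.00 (Nop2), and those with the ETS core at -0.11 (Nip7), -0.42 (Pwp2) and 0.24 (Ltv1), none of them called.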

How the data were processed

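Total RNA from sorted CD11b+ spleen cells was amplified with a low-input kit (per the labels' protocols). The submitters' processing notes list STAR 2.7.10b, DESeq2 2.11.40.7, cutadapt 4.4, featureCounts 2.0.3 and FastQC 0.74, with GRCm38 and mm10 as builds. The sources used here do not give the annotation or the strand setting. The deposited expression signal is reads divided by 1 size factor per library, and every value was a whole multiple of that step within a tolerance of 0.001. The authors' deposited table of the comparison gives a mean signal, a log2 fold change with its error, a score (the test statistic) and p-values before and after adjustment for each gene, and was used only where it is named. GENCODE M21 supplied symbols, coordinates and exon lengths for 42548 of the 43432 genes.

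From the deposited values, log2(normalized count + 1) was fitted with limma 3.58.1 (R 4.3.3; lmFit, eBayes with a variance trend) on sex and group over the 6 libraries, for the 9923 genes with a mean of at least 10. Tests were two-sided, with Benjamini-Hochberg adjustment over all genes tested and a threshold of 0.05. Alternatives were pseudocounts 0.5 and 5, no filter, a mean of at least 50, no sex term, a replicate block, TMM scaling, library weights, edgeR 4.0.16 and DESeq2 1.42.0 on recovered reads, the authors' table, males only, and each library left out. The code was tested on simulated data. Values in every library are given for the 2 genes with the smallest p and the most abundant gene of each role class. In the other ribosome biogenesis lists the 3 genes with the smallest p are named, and in further lists the 2 with the smallest p or those called. Other genes of the list are given by log2 fold change, and Myc was added after its values were seen. The genes of the list, the further lists and the tests were chosen with earlier results of these data known.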

Additional observations from a re-analysis of the deposited data

How the results depend on the processing

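No gene of the list was called under any alternative except library weights, which called 1 (Rrs1, log2 fold change 1.57). Of all genes, 607 were called, and this count was 1079 with no filter, 10 with no sex term, 1001 with the replicate block, 1443 with library weights, 133 in males only and 4 to 1090 with 1 library left out, the lowest without IgHMOG iGBGFP replicate 2 and the highest without WT iGB6 replicate 2. It was 128 without IgHMOG iGBGFP replicate 1, 28 without IgHMOG iGBGFP replicate 3 and 133 without WT iGB6 replicate 1. The 4 further ribosome biogenesis lists had 1 gene called, and 2 with a pseudocount of 5, with DESeq2 and in the authors' deposited table, 3 with no filter and with the replicate block, 0 with no sex term, 7 with library weights and 0 to 4 with 1 library left out. DNA replication and mitosis genes called higher numbered 21, with 0 without the sex term, 5 in males only and 0 to 28 with 1 library left out. With 1 library left out, the sign turned for 21 of the 45 tested genes, Pwp2 (-0.79 to 0.07), Wdr43 (-0.56 to 0.18), Bop1 (-0.18 to 0.53), Gnl3 (-0.05 to 0.43) and Rrp9 (-0.38 to 0.02) among them. Of the genes with values given in every library, 4 turned: the log2 fold change of Nop56 was -0.00642 with TMM scaling, -0.014 with edgeR, -0.16 in males only and without either female, and -0.04 without IgHMOG iGBGFP replicate 2. The log2 fold change of Dkc1 was -0.13 and the log2 fold change of Nhp2 was -0.041 in males only and without either female, and the log2 fold change of Imp4 was 0.0013 with library weights, 0.046 without IgHMOG iGBGFP replicate 3 and 0.015 without WT iGB6 replicate 3. With 1 library left out, Nop56 ran from -0.16 to 0.18, Dkc1 from -0.13 to 0.32, Nhp2 from -0.041 to 0.29 and Imp4 from -0.15 to 0.046. Fits without either female give the same group differences as the males only, so these settings are not separate checks. The cause of these shifts was not tested. The deviations of libraries with the same replicate number correlated at 0.48, 0.35 and 0.04 across genes. Libraries numbered 1 and 2 correlated best with their own number, and those numbered 3 did not. Mice with the same number were of the same sex and had neighbouring mouse numbers in the sample titles. The main fit did not pair the mice, and these values do not settle whether they were paired. With 3 mice in each group, a 2-fold difference could not be set aside for 14 of the 45 tested genes.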
